A study of Mus musculus with 4 samples.

Results

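Actins and the proteins that build, cut, cap, cross-link and anchor actin filaments were followed as mRNAs in purified migrasomes of mouse origin. The 38 genes were taken by symbol from a list of actins and actin filament regulators, and all 38 were found among the 49568 gene symbols of the deposited table. The series compared RNA sequencing libraries titled migrasome (2 libraries) with libraries titled cytosol (2 libraries). No genotype, treatment, time, animal or cell type stands in the labels, and whether the libraries of a group were made from different cultures is not stated. The p-values therefore rest on the spread between libraries that may be technical repeats. Values are the deposited normalised read counts. A difference is the mean of log2(value + 1) in migrasome less that in cytosol, given with its standard error (SE), tested with limma across all genes and called at a Benjamini-Hochberg adjusted p below 0.05.

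Migrasomes are vesicles that grow on the retraction fibres left behind a migrating cell, and those fibres are thin, actin-containing tubes of membrane. Actin monomers join into filaments that push the front of a cell forward. The Arp2/3 complex starts branches, formins extend unbranched filaments, profilins and thymosins hold monomers, cofilins take old filaments apart, capping protein closes filament ends, cross-linkers bundle or net the filaments, and ezrin, radixin and moesin tie them to the membrane. In fibroblasts some of these mRNAs are themselves placed near the leading edge. The best known is Actb, the mRNA of beta-actin, whose 3' untranslated region carries a zipcode that the RNA-binding protein Igf2bp1 (ZBP1) reads in chicken and mouse cells.

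The core of that zipcode is shown because Actb holds most of the reads of the whole set. It was searched in the 3' untranslated regions of the GENCODE M21 transcripts, on the sense strand, as CGGAC followed after 10 to 25 bases by ACA. Among the 38 genes it was found in 1, Actb, where it starts at base 2 after the stop codon, at chr5:142903770-142903796 on the minus strand of GRCm38. The capitals mark the parts searched for, and the spacer of 19 bases is in lower case.
Actb: CGGACtgttactgagctgcgttttACA
The search pattern, with any spacer of 10 to 25 bases, was found in 401 of 9990 tested coding genes (4.01%). The 3' untranslated regions of the 9990 genes had a median length of 958 bases, against 872 bases for the 38 genes. A match is a description of the sequence and not evidence of binding.

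Reads assigned to genes numbered 5228713 and 5171092 in migrasome, against 7529136 and 8608369 in cytosol. The deposited values summed to 7394520 and 6805540 in migrasome, against 5840730 and 5904180 in cytosol, so the scaling left larger totals in migrasome. Values are relative within a library, so more of a given mRNA and less of all other RNA cannot be told apart. Of 12 fibroblast markers 9 were measurable, with summed values of 60641 to 74552 in migrasome and 51452 to 57787 in cytosol, while Lum was at 0 in all 4 libraries. The sums rest mainly on Vim and S100a4, and most of the measurable list ran the other way. Col1a1, Col1a2, Col3a1, Pdgfra, Pdgfrb and Fn1 were lower in both migrasome libraries than in both cytosol libraries, with Col1a2 at 1715 and 2287 in migrasome, against 10736 and 7740 in cytosol. The part of this in the results below was not tested. Epithelial, leukocyte, endothelial and erythroid markers had no member above the filter. The muscle markers Myog, Myod1, Ckm and Actc1 were at 0 in all 4 libraries. Among 5 neural markers 3 were measurable at low levels, with sums of 64.5 to 73.5 in migrasome and 30.2 to 34.9 in cytosol, and their part in any result was not tested.

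Most of the actin-related mRNAs had higher values in migrasome than in cytosol, and a minority of them passed the test. The minimum for testing, 10 normalised reads in any 2 libraries, was reached by 36 of the 38 genes. Among these 36, 10 rose, 1 fell and 25 did not pass the limma test, where 8.68% of all 10860 tested genes rose and 17.7% fell. The 10 that rose were Actg1, Arpc2, Arpc3, Actr3, Cap1, Dstn, Fscn1, Diaph3, Ezr and Msn, and the one that fell was Flnc. The difference was positive for 32 of the 36, against 49.8% of all tested genes, and its median was 0.55, against -0.004 over all tested genes. Both migrasome libraries lay above both cytosol libraries for 25 of the 36 (33.3% of all tested genes) and below them for 2 (36.3% of all tested genes). Which calls were made changed with the library left out, among these genes and over all tested genes alike. In such a fit the spread comes from the other group alone, and migrasome libraries differed more from each other than cytosol libraries. The median difference of the 36 was 0.63 and 0.56 without cytosol replicate 1 or 2. It was 0.41 and 0.76 without migrasome replicate 1 or 2. Over all tested genes the median was -0.018, -0.012, -0.002 and -0.033 in the same order. On the reads recovered from the table, edgeR's quasi-likelihood test with TMM called 11 of the 36 higher (9.86% of all tested genes) and 1 lower (19.0%), and DESeq2 called 15 higher (10.5%) and 0 lower (14.7%), with Flnc at a DESeq2 adjusted p of 0.062. With the deposited size factors edgeR called 13 higher (10.1%) and 1 lower (18.3%). With library totals made equal, 3 were higher (2.97%) and 1 lower (23.2%), with quantile normalization 4 were higher (11.0%) and 1 lower (12.9%), and with a replicate block 19 were higher (16.6%) and 1 lower (24.1%). The share of the 36 that rose with quantile normalization was thus close to that of all tested genes. Their median difference was then 0.32, against 0.11 over all tested genes.

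**Figure D1:**
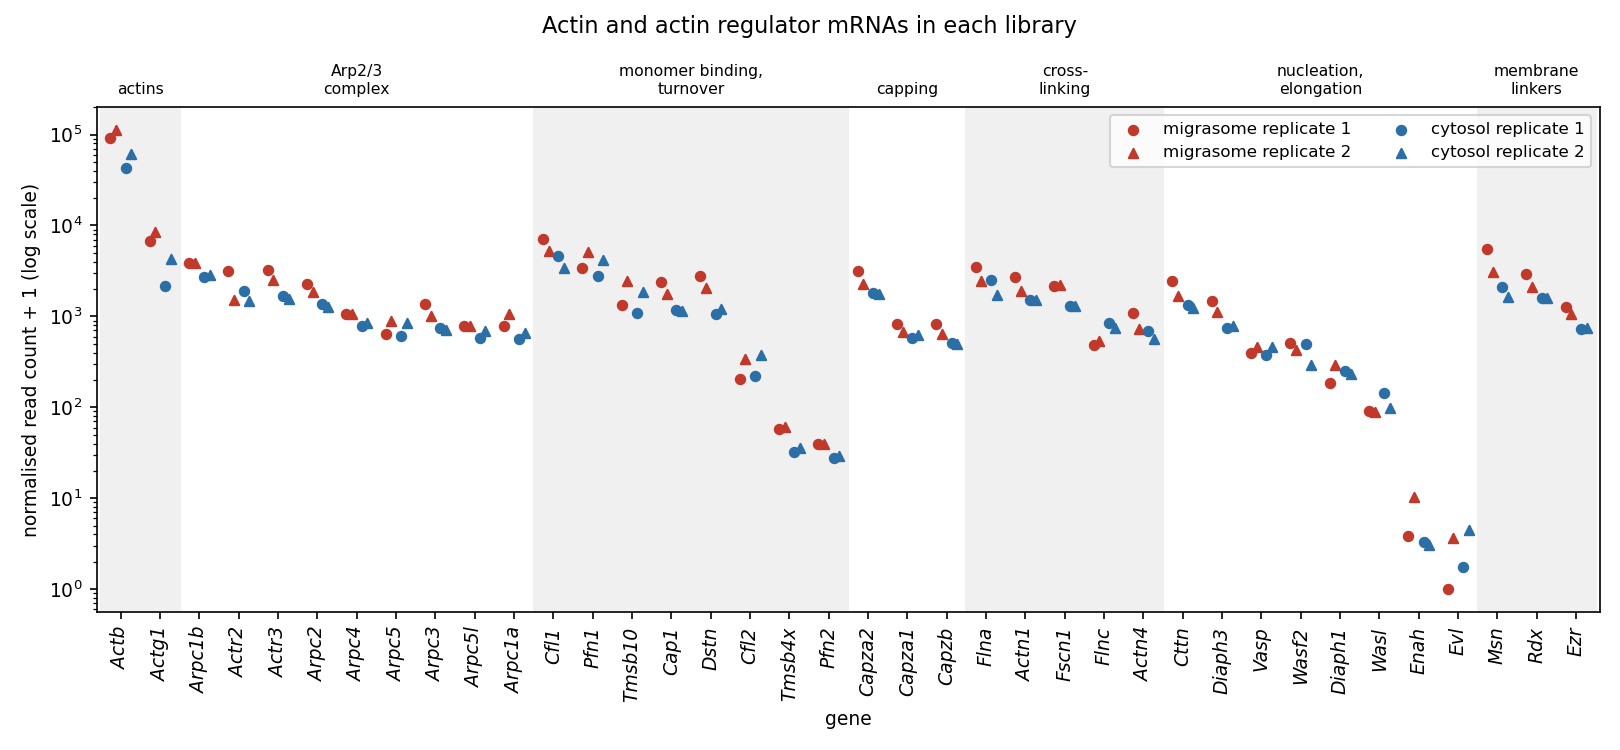
Normalised read count plus 1 (log axis) of each of the 38 genes in each of the 4 libraries, with migrasome libraries in red and cytosol libraries in blue, grouped by the role of the protein. Actb stands above all the others at 42844 to 112516, and Enah and Evl lie at the bottom with fewer than 10 reads in every library.

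**Figure D2:**
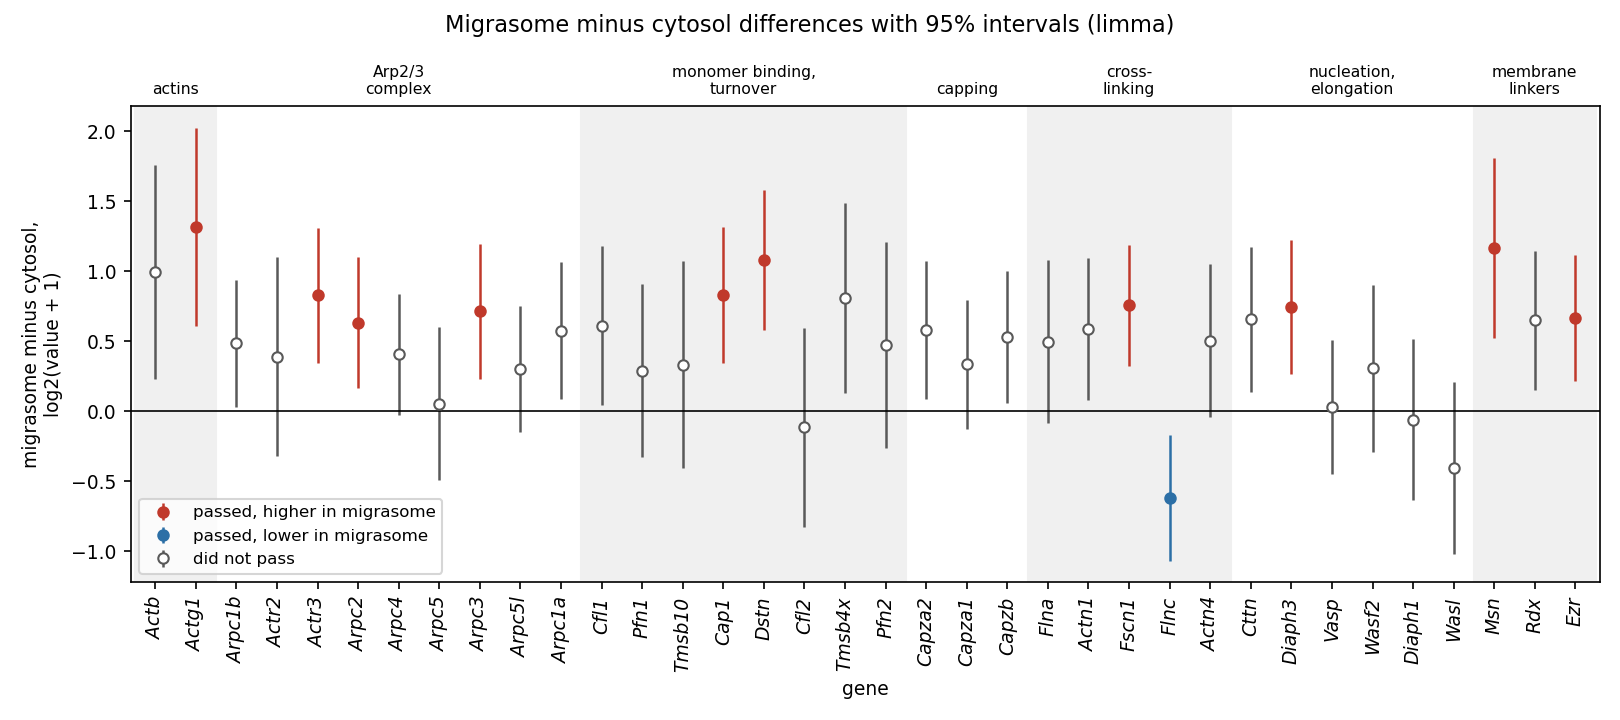
Migrasome minus cytosol difference of each of the 36 measurable genes on the log2(value + 1) scale, with its 95% interval from limma. Filled red points are the 10 that rose, the filled blue point is Flnc, which fell, and open points did not pass.

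Actb was by far the most abundant of the set, and both actins had differences near the top of it. Actb, the non-muscle beta-actin on chromosome 5 from 142903115 to 142906754 (minus strand, GRCm38, as are all positions given), had 92661 and 112516 normalised reads in migrasome replicates 1 and 2, against 42844 and 61261 in cytosol replicates 1 and 2. Both migrasome libraries were above both cytosol libraries, yet the difference of 0.99 ± 0.34 (SE, 95% interval 0.23 to 1.76) did not pass (limma adjusted p = 0.056). Actg1, the non-muscle gamma-actin on chromosome 11 from 120345690 to 120348542 (minus strand), had 6682 and 8535 normalised reads in migrasome, against 2146 and 4286 in cytosol. Actg1 rose by 1.32 ± 0.32 (limma adjusted p = 0.015), with no overlap of the groups and with cytosol replicate 1 the lowest library. Without cytosol replicate 1 its difference was 0.82 and did not pass (limma adjusted p = 0.20), and with quantile normalization it was 0.73 (adjusted p = 0.13). The call also ended without a filter (adjusted p = 0.052) and with eBayes without a trend (0.0503). Actb passed in 8 of the 15 alternatives, among them both edgeR fits, DESeq2 and the fits without migrasome replicate 1 or 2. In both groups the actins were higher in replicate 2 than in replicate 1.

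Actb alone made up 1.25% and 1.65% of the migrasome totals, against 0.734% and 1.04% of the cytosol totals. All 38 genes together held 2.39% ± 0.25 of the migrasome total (2.21% and 2.56%) and 1.61% ± 0.23 of the cytosol total (1.45% and 1.77%; SD, n = 2 each). Without Actb the other 37 genes held 0.957% and 0.910% in migrasome, against 0.713% and 0.731% in cytosol. The groups did not overlap in any of these 3 shares, but 2 libraries against 2 cannot go below p = 0.33 in the exact permutation test (two-sided), which is the value all 3 gave. Per kilobase of annotated exon, the mean level of Actb was 38294 in migrasome and 19430 in cytosol, and that of Actg1 was 2862 in migrasome and 1210 in cytosol. The next in this order per kilobase in migrasome were Cfl1 (2154, against 1411 in cytosol), Pfn1 (1778, against 1456 in cytosol), Tmsb10 (1476, against 1160 in cytosol) and Dstn (1262, against 590 in cytosol). This length joins the exons of all annotated transcripts of a gene, and the order depends on it. For Pfn1 it was 2405 bases, and for Actg1 2658 bases. The Pfn1 transcript with the longest coding sequence has 164, 423 and 274 bases of 5' untranslated, coding and 3' untranslated sequence. That of Actg1 has 124, 1128 and 700 bases. Actg1 has 11 annotated pseudogenes that match its mRNA at 90% identity or more over at least 200 bases, and Actb matched 1. The highest of those of Actg1, Gm12715, had 46.67 and 50.01 normalised reads in migrasome, against 13.19 and 24.01 in cytosol.

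The Arp2/3 complex consists of the actin-related proteins Arp2 and Arp3 and of supporting subunits, and it starts a new filament on the side of an old one. All 9 of its genes were measurable. Of these 3 rose and 6 did not pass, where 8.68% of all tested genes rose. The differences were positive in all 9, from 0.05 to 0.83, with a median of 0.48. A positive difference was found in 49.8% of all tested genes. Arpc5 turned negative with every library scaled to the same total (-0.22). With quantile normalization Arpc5 (-0.045) and Arpc1b (-0.00052) were negative. Actr3, which encodes Arp3, had 3250 and 2495 normalised reads in migrasome, against 1666 and 1544 in cytosol. It rose by 0.83 ± 0.22 (limma adjusted p = 0.020). Arpc3, a small subunit next to Arp3, had 1366 and 1017 normalised reads in migrasome, against 736 and 700 in cytosol, and rose by 0.71 ± 0.22 (limma adjusted p = 0.036). Arpc2, part of the core that holds the mother filament, had 2283 and 1835 normalised reads in migrasome, against 1375 and 1265 in cytosol, and rose by 0.63 ± 0.21 (limma adjusted p = 0.049).

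The partner of Arp3 was less even. Actr2, which encodes Arp2, had 3171 and 1524 normalised reads in migrasome, against 1904 and 1478 in cytosol, so the groups overlapped, and its difference of 0.39 ± 0.32 was -0.14 without migrasome replicate 1 and 0.92 without migrasome replicate 2. The paralogs Arpc1a and Arpc1b, the propeller-shaped subunits, had differences of 0.58 ± 0.22 and 0.48 ± 0.20 that did not pass, although the groups did not overlap. Arpc4 (0.41 ± 0.19) and Arpc5l (0.30 ± 0.20) showed the same order of libraries without passing. Arpc5 had 638 and 879 normalised reads in migrasome, against 612 and 849 in cytosol, which is an overlap of the groups with a difference of 0.05 (95% interval -0.49 to 0.60). Leaving out either cytosol library ended all 3 calls of the complex, and leaving out migrasome replicate 1 ended those of Arpc2 and Arpc3 (limma adjusted p between 0.081 and 0.31). They were lost as well with quantile normalization, with every library scaled to the same total, without a filter on low values and with eBayes without a trend (0.051 to 0.17). Of the exons of Arpc1b, 18.2% overlap the opposite-strand gene Pdap1, which itself had 1253 and 937 in migrasome, against 866 and 840 in cytosol, and without the strand setting the reads of the overlap cannot be assigned to either gene. A pseudogene copy of Actr3, Gm8822, had 232 and 140 in migrasome, against 102 and 117 in cytosol.

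The 8 genes that bind monomers or turn filaments over had a median difference of 0.54. Passing the test were 2 of them, both higher in migrasome, where 8.68% of all tested genes were higher. Dstn encodes destrin, a relative of cofilin that severs filaments and frees monomers. It had 2796 and 2029 normalised reads in migrasome, against 1050 and 1206 in cytosol, and rose by 1.08 ± 0.22 (limma adjusted p = 0.0076). Cap1 encodes a protein that recharges monomers and speeds the work of cofilin, and it had 2391 and 1775 normalised reads in migrasome, against 1185 and 1132 in cytosol. It rose by 0.83 ± 0.22 (limma adjusted p = 0.021). Dstn kept its call in 14 of 15 alternatives and lost it without cytosol replicate 1 (0.98, limma adjusted p = 0.054). Cap1 lost its call without either cytosol library, with every library scaled to the same total, without a filter and with eBayes without a trend (limma adjusted p from 0.051 to 0.135).

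The cofilins, which are relatives of destrin, the profilins and the thymosins did not pass. Cfl1, the non-muscle cofilin, had 7065 and 5189 normalised reads in migrasome, against 4653 and 3374 in cytosol, with no overlap and a difference of 0.61 ± 0.25 (limma adjusted p = 0.099). Pfn1, the main profilin, had 3412 and 5139 normalised reads in migrasome, against 2798 and 4203 in cytosol. The groups of Pfn1 overlapped, its difference was 0.29 ± 0.28, and its sign turned under quantile normalization (-0.23) and was near 0 without migrasome replicate 2 or cytosol replicate 1. Cfl2, the cofilin best known from muscle, had 202 and 341 normalised reads in migrasome, against 218 and 371 in cytosol, again with overlap and a difference of -0.11 ± 0.32. Tmsb10, a thymosin that sequesters monomers, had 1321 and 2445 in migrasome, against 1085 and 1875 in cytosol (difference 0.33 ± 0.33). Its sister Tmsb4x was low, with 56.6 and 59.2 normalised reads in migrasome (40 and 45 reads), against 31.0 and 34.3 in cytosol (40 and 50 reads), and did not pass (0.81 ± 0.30, limma adjusted p = 0.074). Pfn2, a profilin abundant in brain, had 38.2 normalised reads in each migrasome library, against 26.4 and 28.1 in cytosol (0.47 ± 0.33), and also did not pass. In replicate 2 of both groups Pfn1, Tmsb10 and Cfl2 stood above replicate 1, as the actins did, while Cfl1 stood below it in both groups.

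None of the 3 genes of capping protein, which closes the growing end of a filament, passed. In all 3 both migrasome libraries were above both cytosol libraries, as in 33.3% of all tested genes. Capza2, an alpha subunit, had 3118 and 2294 normalised reads in migrasome, against 1818 and 1754 in cytosol (0.58 ± 0.22, limma adjusted p = 0.076). The beta subunit gene Capzb had 817 and 641 in migrasome, against 503 and 497 in cytosol (0.53 ± 0.21, adjusted p = 0.086), and the other alpha subunit gene Capza1 had 830 and 678 in migrasome, against 571 and 619 in cytosol (0.33 ± 0.21). Before adjustment 2 of the 3 were below the limma threshold, where 4519 of all 10860 tested genes were, in either direction. Of the 3, edgeR called none and DESeq2 called Capza2. Both Capza2 and Capzb passed without migrasome replicate 2 and with a replicate block. Reads of Capza1 may be shared with its near-identical pseudogene Gm3608, which had 341 and 268 in migrasome, against 254 and 221 in cytosol.

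The cross-linkers went both ways. Fscn1 encodes fascin, which bundles parallel filaments in filopodia, and had 2175 and 2218 normalised reads in migrasome, against 1289 and 1309 in cytosol. It rose by 0.76 ± 0.19 (limma adjusted p = 0.019), and the libraries within each group lay close together. Flnc encodes filamin C, a filament-netting protein best known from striated muscle, on chromosome 6 from 29433256 to 29461883 (plus strand), and had 489 and 541 normalised reads in migrasome, against 841 and 741 in cytosol. Flnc fell by 0.62 on the log2 scale (SE 0.20, limma adjusted p = 0.048), with no overlap of the groups, and was the one gene of the set that fell. Flna, the widely expressed filamin, had 3503 and 2465 normalised reads in migrasome, against 2523 and 1716 in cytosol, with overlap and a difference of 0.50 ± 0.26. The alpha-actinins, which join antiparallel filaments in stress fibres, did not pass either. Actn1 had 2722 and 1900 in migrasome, against 1523 and 1509 in cytosol (0.59 ± 0.23), and Actn4 had 1085 and 719 in migrasome, against 686 and 564 in cytosol (0.51 ± 0.24). With either cytosol library left out neither Fscn1 nor Flnc passed, and leaving out migrasome replicate 1 ended the call of Flnc (limma adjusted p between 0.067 and 0.35). Fscn1 also lost its call with quantile normalization, with every library scaled to the same total and with eBayes without a trend, and Flnc with the last of these, with no filter and with DESeq2 (adjusted p from 0.054 to 0.097).

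Genes that start or extend filaments differed among themselves. Of 8 listed, 6 were measurable, 1 rose and 5 did not pass, where 8.68% of all tested genes rose. The differences ran from -0.40 to 0.74. Diaph3, a formin that extends unbranched filaments, had 1471 and 1112 normalised reads in migrasome, against 738 and 789 in cytosol, and rose by 0.74 ± 0.21 (limma adjusted p = 0.030). Its call was lost without either cytosol library or migrasome replicate 1 (0.062 to 0.19), and with quantile normalization, scaling to the same total, no filter and eBayes without a trend (0.053 to 0.097). The related formin Diaph1 had 185 and 288 normalised reads in migrasome, against 251 and 231 in cytosol, with migrasome values on both sides of cytosol and a difference of -0.06 ± 0.26. Cttn encodes cortactin, which steadies Arp2/3 branches, and had 2456 and 1677 normalised reads in migrasome, against 1345 and 1230 in cytosol (0.66 ± 0.23, limma adjusted p = 0.061). Wasf2, a WAVE protein that switches on Arp2/3, had 513 and 428 in migrasome, against 491 and 292 in cytosol (0.31 ± 0.27, groups overlapping). Wasl encodes N-WASP, another activator of Arp2/3, and was the second gene with both migrasome libraries below both cytosol libraries, at 90.5 and 88.2 normalised reads in migrasome, against 144 and 97.4 in cytosol, without passing (-0.40 ± 0.28). The Ena/VASP proteins extend filaments at leading edges, and of their genes Vasp had 395 and 459 in migrasome, against 379 and 458 in cytosol (0.03 ± 0.21). Enah and Evl were too low to test, with 2 and 7 reads for Enah in migrasome, against 3 and 3 in cytosol, and 0 and 2 reads for Evl in migrasome, against 1 and 5 in cytosol.

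The membrane linkers had positive differences throughout, as did 49.8% of all tested genes. Msn encodes moesin, on chromosome X from 96096042 to 96168552 (plus strand), and had 5569 and 3101 normalised reads in migrasome, against 2108 and 1623 in cytosol. Msn rose by 1.17 ± 0.29 (limma adjusted p = 0.017), the second largest difference among those of the set that passed, with replicate 1 above replicate 2 in both groups. Ezr, which encodes ezrin, had 1277 and 1065 normalised reads in migrasome, against 721 and 747 in cytosol, and rose by 0.67 ± 0.20 (limma adjusted p = 0.037). Rdx, which encodes radixin, had 2936 and 2124 in migrasome, against 1588 and 1595 in cytosol, with no overlap, and did not pass (0.65 ± 0.22, adjusted p = 0.055). The difference of Msn was 0.74 without migrasome replicate 1. Msn no longer passed when cytosol replicate 2 was left out (0.98, limma adjusted p = 0.079), without a filter (adjusted p = 0.053) and with eBayes without a trend (0.055). The call of Ezr was lost without either cytosol library and without migrasome replicate 1, and in 4 other settings (0.064 to 0.23 and 0.067 to 0.13).

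Ratios between related genes within a library do not depend on its size factor, since the same factor applies to both genes. Such ratios were taken for 14 pairs, and the groups overlapped for 9 and did not for 5, a number from which nothing is read, as groups of 2 often do not overlap. The ratio Flnc to Flna was 0.140 and 0.219 in migrasome, against 0.333 and 0.432 in cytosol, and was the one ratio with both migrasome libraries below both cytosol libraries. The ratio Diaph3 to Diaph1 was 7.94 and 3.86 in migrasome, against 2.94 and 3.42 in cytosol. Dstn to Cfl1 was 0.396 and 0.391 in migrasome, against 0.226 and 0.358 in cytosol. Capza2 to Capza1 was 3.76 and 3.38 in migrasome, against 3.18 and 2.83 in cytosol, and Actg1 to Actb was 0.0721 and 0.0759 in migrasome, against 0.0501 and 0.0700 in cytosol. On the log scale the gap between the groups was narrower than the spread within at least 1 group for all 5. Each of the 5 gave an exact permutation p of 0.33 (two-sided), the smallest that 2 libraries against 2 allow, so none of these differences in ratio passed a test. The ratios Rdx to Ezr, Arpc1b to Arpc1a and Actn4 to Actn1 overlapped between the groups, with mean log2 shifts of -0.02, -0.09 and -0.08.

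**Figure D3:**
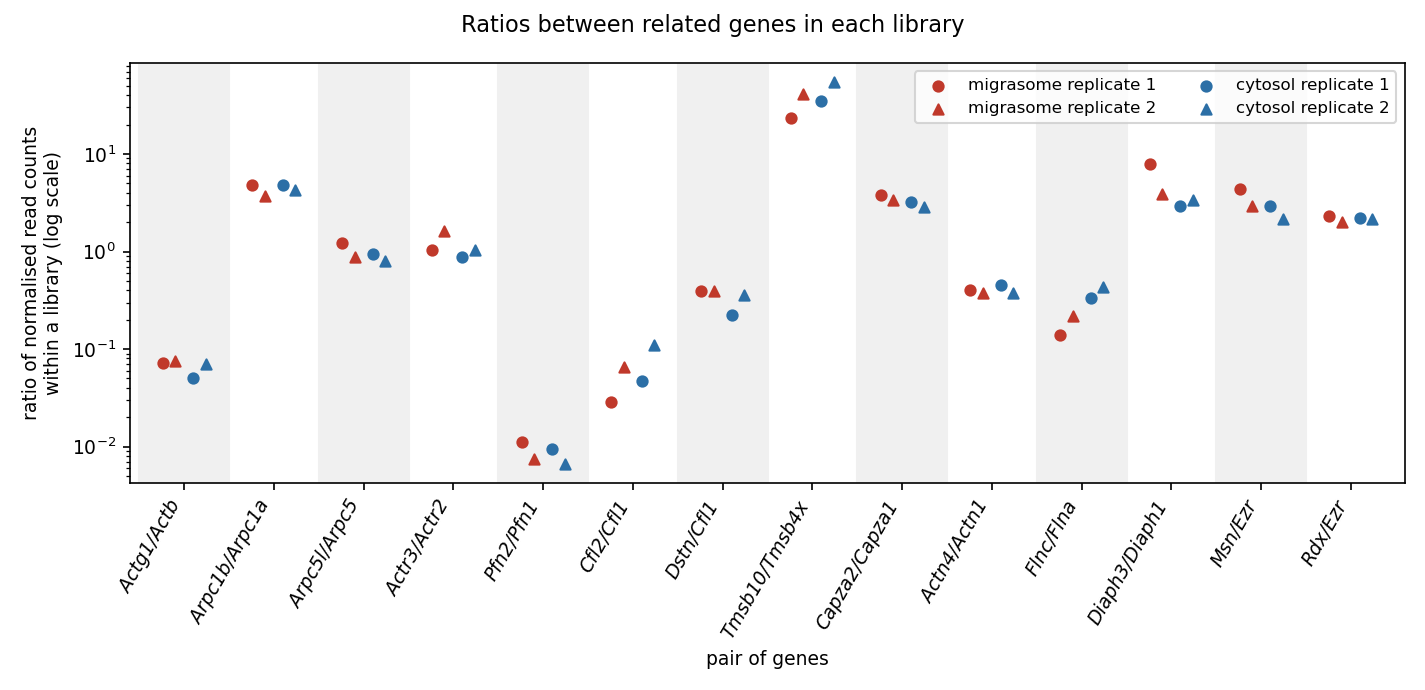
Ratio of normalised read counts between related genes within each library (log axis), with migrasome libraries in red and cytosol libraries in blue. Flnc to Flna lies lower in both migrasome libraries (0.140 and 0.219) than in both cytosol libraries (0.333 and 0.432), while 9 of the 14 pairs overlap.

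Libraries of a group differed from each other more in migrasome than in cytosol. The median absolute log2 ratio of replicate 2 to replicate 1 over the 36 genes was 0.41 in migrasome and 0.16 in cytosol. Across these 36 genes the difference went with the level in cytosol (Spearman correlation 0.42) and hardly with the length of the coding sequence (0.08) or of the 3' untranslated region (-0.19). These are descriptions across genes of the same 4 libraries, in which genes are not independent replicates, and the cytosol level enters the difference itself.

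Further genes of the actin pathway, 157 in 8 lists by role, were set beside the 38. Of these, 156 were found and 115 were measurable, with a median difference of 0.37. The test passed 28 as higher and 4 as lower in migrasome, and 83 did not pass, where 8.68% of all tested genes were higher and 17.7% lower. In the smaller lists a call more or less moves the share by much, and several lie near these shares. The myosins, which pull on filaments, and the tropomyosins, which coat them, had 8 of 18 rising and none falling (median 0.64). Myo10, the motor that carries cargo along filopodia, had 3775 and 4397 normalised reads in migrasome, against 754 and 600 in cytosol. Its difference of 2.60 ± 0.21 (limma adjusted p = 0.00035) was larger than that of any of the 36 genes and kept its call in every alternative. Other cross-linking and side-binding proteins had 7 of 18 rising and none falling (median 0.61). Palld, which encodes the stress fibre scaffold palladin, had 634 and 416 normalised reads in migrasome, against 113 and 78.9 in cytosol, and rose by 2.43 ± 0.28 (limma adjusted p = 0.00055), a call that no alternative ended. The most abundant genes of that list were Cnn2, a calponin (0.79 ± 0.22), and Sptan1, a spectrin (0.81 ± 0.23), and those of the motor list were Tpm4 (1.03 ± 0.25) and Myh9 (1.33 ± 0.30). All 4 rose. Among other capping and severing proteins 4 of 13 rose and none fell (median 0.52), namely Avil (1.47 ± 0.21), Gsn, which encodes the severing protein gelsolin (1.33 ± 0.27), Flii, a gelsolin relative (0.96), and Capg (0.91 ± 0.22).

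For this and the next lists, 8.68% of all tested genes rose. In the list of monomer binding and cofilin control 2 of 14 rose (median 0.09). Among them was Wdr1, a partner of cofilin, with 3923 and 3817 normalised reads in migrasome, against 1637 and 2200 in cytosol (1.03 ± 0.22). Of 22 WAVE, WASP and Arp2/3 regulators 4 rose (median 0.41), with the largest difference for Gmfb, a factor that removes Arp2/3 branches (0.90 ± 0.21), while Nckap1, a WAVE complex subunit, stood at 2923 and 2472 in migrasome, against 1928 and 1888 in cytosol, without passing. Of 11 formins and other nucleators none rose and 1 fell in the limma test (median -0.20), where 17.7% of all tested genes fell. Before adjustment 4519 of all 10860 tested genes were below 0.05, in either direction. Of the 11 in this list 3 were, all of them lower in migrasome. The one that fell after adjustment was Daam1, with 113 and 141 normalised reads in migrasome, against 205 and 237 in cytosol.

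Of 14 other membrane linkers 2 rose, 3 fell and 9 did not pass, which is close to the shares over all tested genes. Tln1, which encodes the integrin-binding talin, rose by 0.97 ± 0.22, and Epb41l2, a relative of the membrane skeleton protein 4.1, by 0.68 ± 0.22. Cd44, a transmembrane receptor to which ezrin, radixin and moesin bind, had 236 and 395 normalised reads in migrasome, against 1549 and 1100 in cytosol, and fell by 2.09 on the log2 scale (SE 0.28, limma adjusted p = 0.00083). The others that fell, named after their values were seen, were Pdpn, another transmembrane partner of these linkers (-1.79), and Vcl, the vinculin gene (-1.37). Among other actins and actin-related proteins 1 of 5 rose (median 0.30), where 8.68% of all tested genes rose. It was the skeletal muscle actin gene Acta1, with 301 and 286 normalised reads in migrasome, against 159 and 141 in cytosol (0.96 ± 0.22). The heart actin gene Actc1 was at 0 in all 4 libraries, the muscle filament gene Des had 185 and 103 in migrasome, against 98.5 and 73.4 in cytosol, and whether reads of the abundant Actb reached Acta1 was not tested. With quantile normalization the calls of Cnn2, Sptan1, Myh9, Tpm4, Wdr1, Gmfb, Tln1, Epb41l2 and Daam1 were lost. Those of Cnn2, Sptan1, Epb41l2 and Daam1 were also lost without a filter and with eBayes without a trend, that of Tpm4 without a filter, those of Cnn2, Sptan1 and Epb41l2 with equal library totals, and that of Daam1 with DESeq2 (adjusted p = 0.056). The calls of Cnn2, Sptan1, Tpm4, Gmfb, Epb41l2, Daam1 and Capg also ended without either cytosol library, that of Wdr1 without cytosol replicate 1, and those of Myh9, Tln1 and Acta1 without cytosol replicate 2. Those of Epb41l2 and Daam1 ended without migrasome replicate 1 as well (limma adjusted p from 0.051 to 0.26 over these cases).

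**Figure D4:**
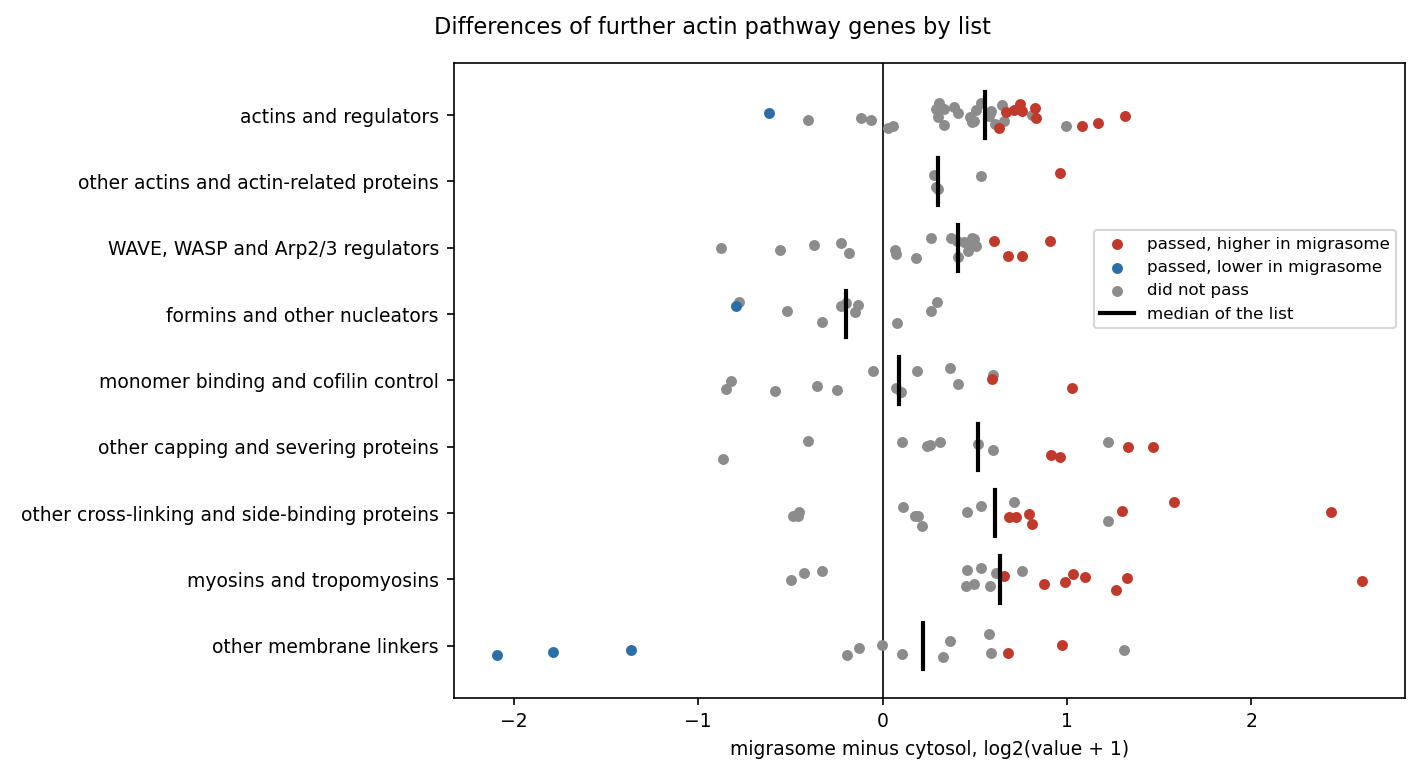
Migrasome minus cytosol differences on the log2(value + 1) scale for the 36 measurable actin genes and regulators and for the 8 further lists, 1 point per gene, with the median of each list as a black bar. Medians range from -0.20 for formins and other nucleators to 0.64 for myosins and tropomyosins, and Myo10 (2.60), Palld (2.43) and Cd44 (-2.09) lie farthest out.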

How the data were processed

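RNA of purified migrasomes and of cytosol was sequenced in 2 libraries per group, grouped by sample title. Trimming and quality tools (cutadapt, Trimmomatic, FastQC), the aligner STAR, the counter HTSeq, DESeq and the build GRCm38 appear in the submitters' processing notes. The sources used here do not give the annotation, the strand setting or the handling of multiply mapping reads. For each gene the deposited table holds a signal that keeps the steps of read counts scaled once per library, which is read from the values. Dividing each library by the value of 1 read gave whole reads (tolerance 0.001) for 100% of values. The limit that 0 reads allows is 3 reads, worth 4.24 and 3.95 in migrasome and 2.33 and 2.06 in cytosol. It covers counting error alone, since nothing in the sources mentions molecular identifiers. Replicates differed beyond sampling noise (chi-square over degrees of freedom 27.9 in migrasome and 17.6 in cytosol).

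Testing used limma 3.58.1 in R 4.3.3, with a trended eBayes and no replicate block, on log2(value + 1) of genes that reached 10 in any 2 libraries. On this scale changes of low genes are understated, and p-values were adjusted over all 10860 tested genes. edgeR 4.0.16 and DESeq2 1.42.0 on the recovered reads, other pseudocounts, filters, scalings and variance models, a replicate block and each left-out library were alternatives. With 1 library left out, the lone library of its group is assumed to vary like the other group. The test was tried on simulated counts with known changes and the same replicate spread set for every gene and group. The real migrasome libraries differed more from each other than the cytosol libraries, so nothing about the calls is read from that trial. Positions and transcripts came from GENCODE M21 (GRCm38), and near-identical copies from blastn 2.17.0 (at least 90% identity over at least 200 bases). All 38 genes are named. Of each further list the 2 most abundant genes and the largest positive and negative called difference were eligible for naming. Others named (Flii, Pdpn and Vcl) were chosen after their values were seen, and their results in the alternatives are not given. Another list and a further gene are not reported here. The genes and lists were chosen with earlier results of these data known.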

Additional observations from a re-analysis of the deposited data

How the results depend on the processing

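The pseudocounts, a minimum mean of 50, edgeR and DESeq2 left the number of the 38 genes that rose between 10 and 15, against 10 as reported. It was 2 without a filter on low values, 3 with every library scaled to the same total, 4 with quantile normalization and 3 with eBayes without a trend. Leaving out 1 library gave 1 to 20 that rose and 0 to 1 that fell. The 1 that fell, Flnc, was not called without a filter, with eBayes without a trend or with DESeq2 (0 genes each). Equal replicate numbers are not said to mark a shared preparation. The deviations of same-numbered libraries from their group means correlated at 0.23 over all tested genes, and with a replicate block 19 of the 38 genes rose and 1802 of all genes did.

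Of all tested genes 943 rose and 1919 fell. The number that rose was 393 without a filter, 322 with the same total per library and 483 with eBayes without a trend, and with 1 library left out 231 to 2085 rose and 1147 to 2800 fell. The median difference of the 36 genes was 0.28 with the same total per library and 0.32 with quantile normalization, where the median of all tested genes was -0.27 and 0.11. It ranged from 0.41 to 0.76 with 1 library left out.

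Some differences that did not pass changed sign. None did among the 11 of the 38 genes and the 16 further genes that passed and whose alternatives are given. With the same total per library Arpc5 stood at -0.22, Vasp at -0.24 and Spire1, an actin nucleator among the further genes, at -0.0096. With quantile normalization Arpc1b stood at -0.00052, Arpc5 at -0.045, Cfl2 at 0.068, Pfn1 at -0.23 and Diaph1 at 0.14. DESeq2 put Diaph1 at 0.0029. With 1 library left out the ranges were -0.18 to 0.29 for Arpc5, -0.14 to 0.92 for Actr2, -0.50 to 0.27 for Cfl2, -0.0071 to 0.58 for Pfn1, -0.11 to 0.78 for Tmsb10, -0.38 to 0.26 for Diaph1, -0.067 to 0.68 for Wasf2, -0.11 to 0.17 for Vasp and -0.039 to 0.56 for Spire1.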
